A study of Homo sapiens with 5 samples.

Results

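The 10 genes described here encode inflammatory chemokines and cytokines of the interleukin-1 (IL1) family: CXCL1, CXCL2, CXCL3, CXCL5, CXCL8, CCL2, CCL20, IL1A, IL1B and IL18. They were found by symbol in a table of 37181 gene entries, where each of the 10 had 1 entry. All are protein-coding. Their RNA was measured in HCC827, an established human lung adenocarcinoma cell line whose growth depends on mutant EGFR, and in HCC827/GR, a gefitinib-resistant line raised from it under stepwise increasing doses of gefitinib, an inhibitor of the EGFR kinase. Both groups are labelled with the same genotype, a deletion in exon 19 of EGFR. There were 3 HCC827/GR libraries (replicates 1, 2 and 3) and 2 libraries of gefitinib-sensitive parental HCC827 (GS, replicates 2 and 3). The resistant cells are 1 line, whether a clone or a pool is not stated, and nothing in the labels says that the replicates were separate cultures, so p-values measure only the spread between these libraries, which may be technical. Whether gefitinib was present when RNA was taken is not given in the sources used here.

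Chemokines are small secreted proteins that draw leukocytes along a gradient, and the CXC members studied here, which carry the Glu-Leu-Arg motif, attract mainly neutrophils through the receptors CXCR1 and CXCR2. IL1A and IL1B bind the IL1 receptor, which signals through MYD88 and IRAK kinases to the transcription factor NF-kappaB, and chemokine genes are among the best known targets of that pathway. IL18 is made as an inactive precursor, like IL1B, and epithelial cells often hold a store of it.

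By the limma test described below, CXCL8 and IL1A were called higher in HCC827/GR and IL18 lower. These calls depended on the model and on single libraries. Those of CXCL8 and IL18 were lost when any 1 HCC827/GR library was left out. That of IL1A was lost without HCC827/GR replicate 1 or replicate 3. With Ballgown's model, the tool of the study, none of the calls was kept. CXCL8, also called interleukin-8, had a mean of 4.47 FPKM in HCC827/GR and 0.872 in HCC827, a ratio of 5.12. For IL1A, a cytokine that acts as an alarm signal of damaged epithelium, the ratio of the means was 3.71. IL18 was 2.31-fold higher in HCC827 than in HCC827/GR. FPKM is a level normalised by the length of the transcript and by the mapped fragments of the library. All 10 genes were low on this scale, with the highest single value at 15.1 FPKM, and depth is unknown because the table carries no read counts.

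The comparison of the groups asks which of these genes differ between gefitinib-resistant and gefitinib-sensitive cells. Genes were compared with limma on log2(FPKM + 1) over 16189 entries, those whose mean over the 5 libraries reached 0.5 FPKM, and a gene was called at a Benjamini-Hochberg adjusted p under 0.05 over all of them. Of the 10 genes, 8 reached that level and CXCL3 and CCL20 did not. Among the 8, 2 were called higher in HCC827/GR, against a background of 5.26% of all entries tested, and 1 was called lower, against 5.71%. The study used other thresholds, namely an unadjusted p under 0.05 with a change of 2-fold or more (a ratio of 0.5 or less for lower genes). By these, 3 genes passed as higher (background 2.96%) and 1 as lower (background 3.97%) in the limma fit. With Ballgown's model, 1 passed as higher, CXCL8 (411 of all 16189 entries did), and 1 as lower, IL18 (464 entries). The median log2 fold change of the 8 was 0.59, and that of all entries tested was 0.00. In 4 of the 10 genes every HCC827/GR library lay above both HCC827 libraries, an arrangement found in 22.8% of all entries tested. In 2 genes every HCC827/GR library lay below them, as in 23.4% of all entries. With 3 libraries against 2, an exact permutation test cannot give a p below 0.1, so the adjusted p rests on a spread shared across entries by the model. The fitted log2 fold changes, which carry a pseudocount of 1, were smaller in size than the log2 ratios of the means in the tested genes other than CXCL5.

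**Figure D1:**
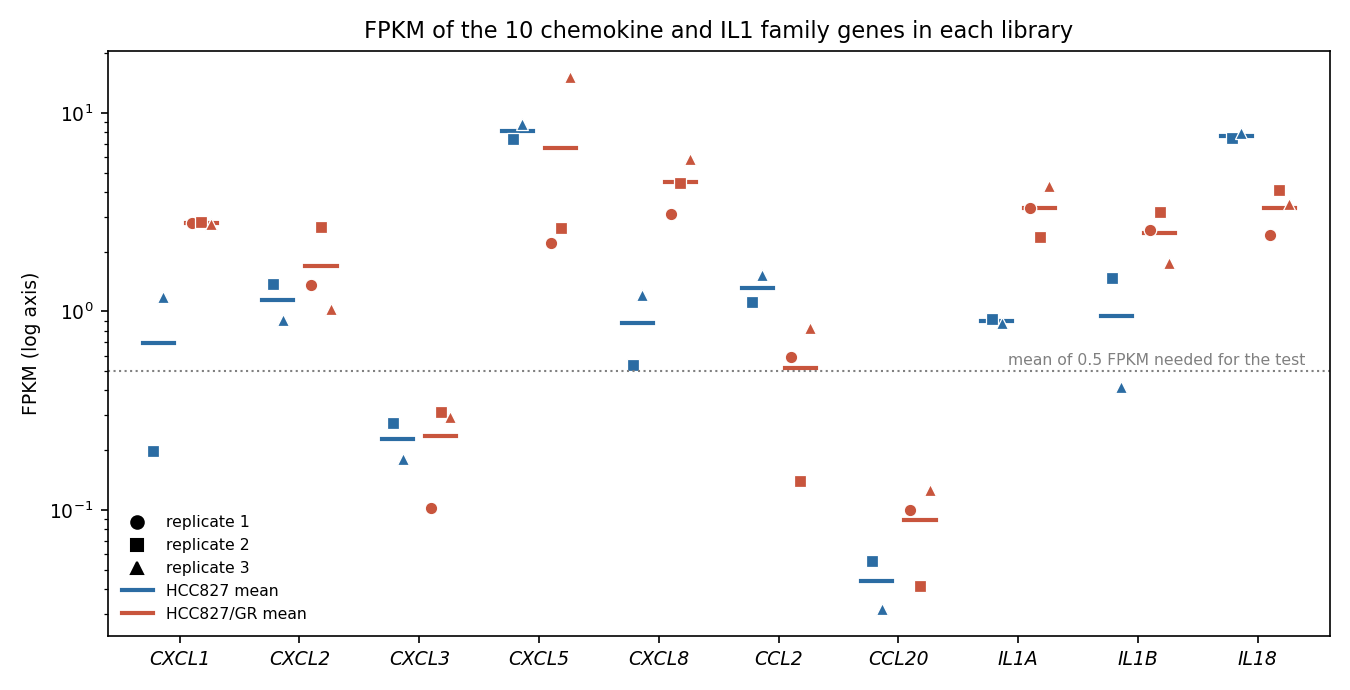
FPKM of each gene (vertical log axis) in the 5 libraries, with marker shapes for the replicates and a short line at each group mean. CXCL1, CXCL8, IL1A and IL1B have all 3 HCC827/GR points above both HCC827 points, CCL2 and IL18 have all 3 below, and the single HCC827/GR point of CXCL5 at 15.1 FPKM stands above every other value.

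The 5 CXC genes lie together on the long arm of chromosome 4, within 358.8 kb from the start of CXCL8 to that of CXCL2 in GENCODE, and no other tested protein-coding gene starts between them. Their promoters are shown because all 5 hold the same NF-kappaB-type motif. The letters GGAATTTCC were searched on both strands in the 300 bases from 250 before to 50 after each start in the RefSeq table (build GRCh38.p14). The motif was found in 162 of 35116 promoters (0.461%), or by gene in 153 of 27305 (0.560%). No test is drawn from this share, since the promoters are shown for holding the motif. Of the 8 genes of the set with a promoter in that table, it was found in 5, all of them CXC genes. A match of letters is a description and not a measured binding site. Each line below gives 60 bases, 5′ to 3′ on the strand of the gene, with the motif in capitals. CXCL8 is read from chr4:73740453-73740512 on the plus strand, CXCL1 from chr4:73869290-73869349 on the plus strand, CXCL5 from chr4:73998733-73998792 on the minus strand, CXCL3 from chr4:74038733-74038792 on the minus strand and CXCL2 from chr4:74099238-74099297 on the minus strand.
CXCL8: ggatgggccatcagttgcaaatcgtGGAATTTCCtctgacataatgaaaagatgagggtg
CXCL1: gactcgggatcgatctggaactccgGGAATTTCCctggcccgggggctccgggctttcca
CXCL5: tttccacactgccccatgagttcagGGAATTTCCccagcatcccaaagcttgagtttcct
CXCL3: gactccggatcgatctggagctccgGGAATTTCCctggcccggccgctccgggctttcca
CXCL2: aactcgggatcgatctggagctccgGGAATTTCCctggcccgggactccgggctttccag
Counted from the RefSeq start, the motif began at position -78 in CXCL1 and CXCL3, at -77 in CXCL2, at -90 in CXCL5 and at -91 in CXCL8. The RefSeq start is that of GENCODE in CXCL1 and lies inside the outermost GENCODE start by 98 bases in CXCL2, 118 in CXCL3, 102 in CXCL5 and 63 in CXCL8. In CXCL2, CXCL3 and CXCL5 the motif is therefore within the gene span given for GENCODE. CXCL1 and CXCL3 shared 56 of the 60 bases shown, CXCL1 and CXCL2 shared 48, and CXCL2 and CXCL3 shared 47. CXCL5 shared between 18 and 29 bases with the other windows, and CXCL8 between 18 and 24. The genes with this motif did not all move alike, as the values of each gene show.

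CXCL8 (ENSG00000169429, up to 4 exons, chr4:73740506-73743716 on the plus strand in GRCh38) encodes a potent neutrophil attractant. It was at 3.10, 4.41 and 5.88 FPKM in HCC827/GR replicates 1, 2 and 3, and at 0.540 and 1.20 FPKM in HCC827 replicates 2 and 3. The lowest resistant library was above the highest parental one. The group means were 4.47 ± 1.39 (SD, n = 3) and 0.872 ± 0.469 (SD, n = 2) FPKM. The log2 fold change was 1.54 (SE 0.28, 95% interval 0.81 to 2.27, limma adjusted p = 0.0370). That call was held in 7 of 15 alternatives, and it was lost when any one of the 5 libraries was left out, with adjusted p between 0.0595 and 0.167 and log2 fold changes between 1.28 and 1.80.

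CXCL1 (ENSG00000163739, chr4:73869393-73871242, plus strand), also known as GRO-alpha, encodes a neutrophil attractant and growth factor. It was at 2.80, 2.82 and 2.77 FPKM in HCC827/GR and at 0.198 and 1.19 FPKM in HCC827. The resistant libraries were almost equal and the parental libraries lay far apart, without overlap between the groups. The ratio of the means was 4.04, and the log2 fold change of 1.23 (SE 0.27, 95% interval 0.52 to 1.94) missed the threshold at a limma adjusted p of 0.0570. It passed the fold and unadjusted p thresholds of the study in the limma fit. With Ballgown's model, the tool of the study, it met the fold threshold (log2 fold change 1.21) but not that for p. Ballgown's unadjusted p was 0.134 (adjusted p 0.420). Without HCC827 replicate 3 it was called (log2 fold change 1.67, adjusted p 0.0257).

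CXCL2 (ENSG00000081041, chr4:74097035-74099293, minus strand) encodes a close relative of CXCL1 with the same receptor. It was at 1.36, 2.67 and 1.03 FPKM in HCC827/GR and at 1.37 and 0.908 FPKM in HCC827. HCC827/GR replicate 2 was the highest and the other libraries overlapped. The log2 fold change was 0.29 (SE 0.29, 95% interval -0.47 to 1.05, limma adjusted p = 0.590), and the interval reaches above 1 on this log2 scale.

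CXCL5 (ENSG00000163735, chr4:73995642-73998779, minus strand) encodes a neutrophil attractant made mainly by epithelial cells. It was at 2.22, 2.63 and 15.1 FPKM in HCC827/GR replicates 1, 2 and 3, and at 7.38 and 8.84 FPKM in HCC827. Replicates 1 and 2 of the resistant line were below both parental libraries and replicate 3 was above them. The log2 fold change of -0.66 carried an SE of 0.77 and a 95% interval from -2.67 to 1.34 (limma adjusted p = 0.642). Without HCC827/GR replicate 3 it was -1.41, with an adjusted p of 0.0360, so that library alone decides whether CXCL5 is called lower.

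CXCL3 (ENSG00000163734, chr4:74036589-74038807, minus strand), the third close relative of CXCL1, was near the lower end of the scale. It was at 0.102, 0.313 and 0.294 FPKM in HCC827/GR and at 0.274 and 0.180 FPKM in HCC827. The groups overlapped, and the gene was below the level required for the test. The 3 relatives share transcript sequence, so reads could have been divided among them. Of the 50-base stretches of their GENCODE transcripts, 5.73% in CXCL1, 9.24% in CXCL2 and 3.02% in CXCL3 also occur in another of these genes, and none of the stretches in CXCL8 occurs in another gene. The part of such sharing in these values was not tested.

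**Figure D2:**
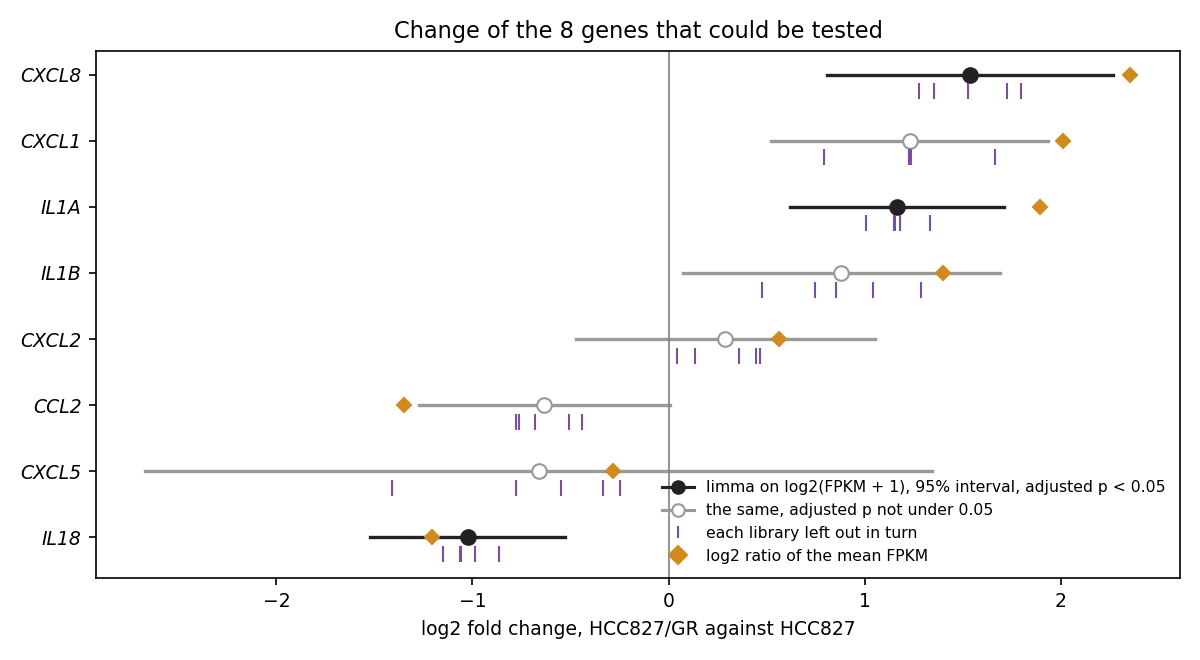
Log2 fold change of HCC827/GR against HCC827 for the 8 tested genes, with limma's 95% interval (dots filled where the adjusted p was under 0.05), the values with each library left out in turn (ticks) and the log2 ratio of the mean FPKM (diamonds). CXCL8 at 1.54 and IL1A at 1.17 are filled on the right and IL18 at -1.02 on the left, and the interval of CXCL5, from -2.67 to 1.34, is the widest.

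Of the CC chemokines, CCL2 (ENSG00000108691, chr17:34255218-34257203, plus strand), which attracts monocytes, was at 0.589, 0.140 and 0.822 FPKM in HCC827/GR and at 1.11 and 1.52 FPKM in HCC827. All 3 resistant libraries lay below both parental ones. The mean was 2.55-fold higher in HCC827, and the log2 fold change of -0.63 (SE 0.25, 95% interval -1.27 to 0.01) did not pass the test (limma adjusted p = 0.188). CCL20 (ENSG00000115009, chr2:227805739-227817564, plus strand), which attracts cells bearing CCR6, had the lowest values of the 10 genes. It was at 0.1002, 0.0412 and 0.126 FPKM in HCC827/GR and at 0.0555 and 0.0317 FPKM in HCC827, with overlapping groups and below the level required for the test.

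IL1A and IL1B are neighbours on chromosome 2. IL1A (ENSG00000115008, up to 7 exons, chr2:112773915-112784590, minus strand) was at 3.31, 2.36 and 4.27 FPKM in HCC827/GR and at 0.913 and 0.873 FPKM in HCC827. Every resistant library was above both parental libraries, which were nearly equal. The means were 3.32 ± 0.954 (SD, n = 3) and 0.893 ± 0.0287 (SD, n = 2) FPKM. The log2 fold change was 1.17 (SE 0.21, 95% interval 0.62 to 1.71, limma adjusted p = 0.0361), and 8 of 15 alternatives kept the call. It held without HCC827/GR replicate 2 (adjusted p 0.0412) and was lost without any one of the other libraries, where the adjusted p was 0.114 without replicate 1 and 0.0632 without replicate 3 of HCC827/GR, and 0.158 without replicate 2 and 0.152 without replicate 3 of HCC827.

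The IL1A promoter is shown because it lacks GGAATTTCC and holds another motif, TGANTCA, the type bound by AP-1 factors. That motif, searched on both strands, was in 2707 of the 35116 promoters (7.71%), or by gene in 2558 of 27305 (9.37%). Among the 8 genes it was in CXCL8 and IL1A. The RefSeq table lists 2 starts for IL1A, both inside the GENCODE span given above. The 60 bases before one of them come from chr2:112784494-112784553 on the minus strand in GRCh38.p14 (RefSeq), with the motif in capitals.
IL1A: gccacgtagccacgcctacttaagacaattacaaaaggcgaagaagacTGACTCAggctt
In CXCL8 the TGANTCA motif stood at positions -137 to -131 from the RefSeq start, outside the 60 bases printed for that gene.

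IL1B (ENSG00000125538, up to 7 exons, chr2:112829751-112836903, minus strand), the main secreted form of IL1, was at 2.58, 3.16 and 1.76 FPKM in HCC827/GR and at 1.48 and 0.414 FPKM in HCC827. The resistant libraries were all above the parental ones, with only a small gap between 1.76 and 1.48 FPKM. The ratio of the means was 2.64, and the log2 fold change of 0.88 (SE 0.31, 95% interval 0.08 to 1.69) was not called, at a limma adjusted p of 0.156. It was 1.29 without HCC827 replicate 2 and 0.48 without HCC827 replicate 3, so the size of the difference rests on which parental library is used.

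IL18 (ENSG00000150782, up to 6 exons, chr11:112143251-112164117, minus strand), which induces interferon gamma in lymphocytes, was the 1 member called lower. It was at 2.43, 4.09 and 3.47 FPKM in HCC827/GR and at 7.46 and 7.92 FPKM in HCC827. Every resistant library was below both parental ones. The means were 3.33 ± 0.842 (SD, n = 3) and 7.69 ± 0.325 (SD, n = 2) FPKM, and the log2 fold change was -1.02 (SE 0.19, 95% interval -1.52 to -0.53, limma adjusted p = 0.0385). The call was kept in 6 of 15 alternatives and lost when any one library was left out, with adjusted p between 0.0582 and 0.162.

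The order of the levels differed between the groups. In HCC827/GR the means ran from CXCL5 through CXCL8, IL18, IL1A, CXCL1, IL1B and CXCL2 to CCL2, CXCL3 and CCL20. In that order the libraries of neighbours overlapped except between CXCL2 and CCL2. In HCC827 the order was CXCL5, IL18, CCL2, CXCL2, IL1B, IL1A, CXCL8, CXCL1, CXCL3 and CCL20. There CXCL5 and IL18 overlapped each other and stood apart from the rest, the genes from CCL2 to CXCL3 each overlapped the next, and CCL20 was apart at the bottom. CXCL8 was thus second by mean in the resistant line and seventh in the parental line.

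The profile of CXCL8 over the 5 libraries was set beside those of 10810 other tested protein-coding genes by the Euclidean distance of their centred log2(FPKM + 1). The nearest were SLC39A6 (distance 0.442), which encodes a zinc transporter, TGFBRAP1 (0.472), SIRPA (0.480), MAOA (0.483), which encodes a monoamine oxidase, and MGAT1 (0.493), which encodes an enzyme of N-glycan synthesis. None of these is a chemokine. MAOA and MGAT1 passed the filter only through the HCC827/GR libraries. In HCC827, MAOA was at 0.0857 and 0.0221 FPKM and MGAT1 at 0.287 and 0.326 FPKM. SIRPA, a surface receptor that binds CD47, was at 5.86, 6.50 and 7.19 FPKM in HCC827/GR and at 1.61 and 1.71 FPKM in HCC827.

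Genes around the CXC cluster were centred near 0. Within 3 Mb on either side of the start of CXCL8, 17 tested protein-coding genes other than the CXC members had a median log2 fold change of 0.03. Of these, 2 were called higher (all entries 5.26%) and 1 lower (5.71%). SLC4A4, which encodes a bicarbonate transporter and lies at -2678 kb from CXCL8, rose by a log2 fold change of 2.40 (limma adjusted p = 0.00422). SCARB2, which encodes a lysosomal membrane protein, rose by 0.57 (adjusted p 0.0409). BTC, which encodes the EGFR ligand betacellulin, fell from 9.33 and 8.10 FPKM in HCC827 to 2.14, 2.22 and 2.64 FPKM in HCC827/GR (log2 fold change -1.54, limma adjusted p = 0.00574). On chromosome 2, 9 genes listed as neighbours of IL1A and IL1B were tested, with a median log2 fold change of 0.21. TTL was called higher (log2 fold change 1.43, limma adjusted p 0.0287, all entries 5.26%) and IL1RN lower (all entries 5.71%). IL1RN was near 0 FPKM in HCC827/GR and passed the filter only through the HCC827 libraries.

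**Figure D3:**
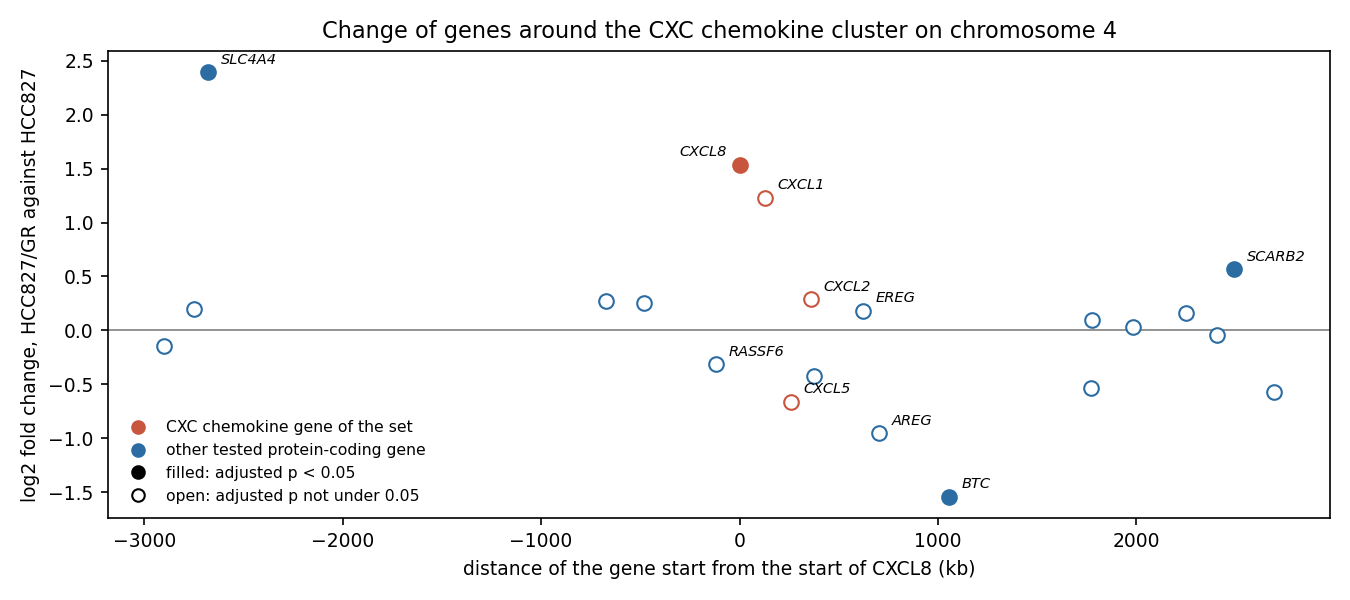
Log2 fold change of HCC827/GR against HCC827 for tested protein-coding genes within 3 Mb of the start of CXCL8, by distance in kb (filled where the limma adjusted p was under 0.05). Of the CXC genes, which crowd within 358.8 kb, CXCL8 is filled at 1.54, while BTC, 1054 kb after it, is filled at -1.54.

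The rest of the pathway was described by 9 lists of genes with known roles, 137 genes in all. Of these, 108 were found in the table and 58 were tested, with 5 called higher and 6 called lower, beside the 5.26% and 5.71% of all entries tested. Their median log2 fold change was -0.04. No list is more than a description, and no list was tested as a set.

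Most other chemokine genes and all matched receptors were below the level for the test. Of 31 other chemokine ligands, 18 were found and 3 tested. CXCL16, which encodes a membrane-bound chemokine, was at 1.59, 1.62 and 1.09 FPKM in HCC827/GR and at 3.47 and 3.45 FPKM in HCC827 and fell (log2 fold change -0.88, SE 0.14, limma adjusted p = 0.0267). Of 23 chemokine receptors, 15 were found and none reached the level for the test, the highest mean being 0.337 FPKM. CXCR1, CXCR2, CCR2 and CCR6, the receptors for the ligands above, were not matched by symbol in the table and are not analysed here.

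Few receptors and antagonists of IL1 and IL18 could be tested. Of 2 tested genes among the other IL1 family ligands and antagonists, 1 was called lower (all entries 5.71%). Of 3 tested receptors of IL1 and IL18, 2 were called lower. In both lists 0 were called higher (all entries 5.26%). IL1RN encodes the antagonist that occupies the IL1 receptor without signalling. It was at 1.76 and 0.811 FPKM in HCC827, at 0.0379 and 0.00947 FPKM in HCC827/GR replicates 1 and 3, and listed at 0 in replicate 2. It fell by 1.14 on the log2 scale (SE 0.23, limma adjusted p = 0.0440), was called in 4 of 14 alternatives, and passed the filter only through the parental libraries. SIGIRR, an inhibitory receptor of the family, was at 0.715, 0.610 and 0.707 FPKM in HCC827/GR and at 3.15 and 2.19 FPKM in HCC827 (log2 fold change -1.12, SE 0.15, limma adjusted p = 0.0185). IL1RAP, the accessory chain that IL1 signalling requires, was at 1.10, 0.938 and 1.35 FPKM against 2.23 and 2.30 FPKM (log2 fold change -0.62, adjusted p 0.0445, called in 3 of 15 alternatives).

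Other genes of this layer were not called. IL1R1, the signalling receptor for IL1A and IL1B, was at 2.26, 3.01 and 1.80 FPKM in HCC827/GR and at 4.01 and 4.20 FPKM in HCC827, without overlap (log2 fold change -0.62, limma adjusted p = 0.101). IL1R2, a decoy receptor, was at or below 0.217 FPKM and IL18R1, the ligand-binding chain for IL18, at or below 0.0323 FPKM in every library, both too low for the test. IL18BP, a secreted binding protein for IL18, had a log2 fold change of -0.15 (adjusted p 0.350), from an entry that joins 2 annotated genes.

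Among 12 tested genes of IL1 receptor signalling, the 1 gene called was MYD88, the adaptor of the receptor, which was lower (all entries 5.71%). It was at 6.18, 6.41 and 6.03 FPKM in HCC827/GR and at 9.45 and 8.66 FPKM in HCC827 (log2 fold change -0.48, limma adjusted p = 0.0388, called in 5 of 15 alternatives). Among 7 tested genes of a list for IL1B and IL18 processing, which also holds gasdermin genes, GSDME was the 1 gene called. The call was in the higher direction (all entries 5.26%). GSDME, a pore-forming gasdermin, is listed as DFNA5 and was also picked from these libraries by the study. It was at 4.26, 4.85 and 5.05 FPKM in HCC827/GR and at 1.03 and 1.01 FPKM in HCC827 (log2 fold change 1.50, SE 0.10, limma adjusted p = 0.00480) and was called in 13 of 15 alternatives. CASP1, the protease that matures IL1B and IL18, was between 0.155 and 0.387 FPKM, and PYCARD, the inflammasome adaptor, was at or below 0.0333 FPKM, so neither was tested.

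Of the NF-kappaB subunits and inhibitors, 12 were tested. NFKBIA, the inhibitor that NF-kappaB itself induces, rose from 18.7 and 18.3 FPKM in HCC827 to 31.8, 26.8 and 31.1 FPKM in HCC827/GR (log2 fold change 0.66, SE 0.11, limma adjusted p = 0.0309). NFKBIZ, a nuclear cofactor of NF-kappaB, fell from 7.23 and 7.83 FPKM to 4.43, 4.89 and 3.53 FPKM (log2 fold change -0.70, adjusted p 0.0478). The subunit genes RELA and NFKB1 had log2 fold changes of 0.32 and 0.06 and limma adjusted p of 0.129 and 0.846, and the sign for NFKB1 held in 12 of 15 alternatives. The calls of NFKBIA and NFKBIZ were kept in 8 and 3 of 15 alternatives.

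Of 12 tested genes from a list of further NF-kappaB targets, 3 were called higher (all entries 5.26%) and none lower (5.71%), with a median log2 fold change of 0.31. Every HCC827/GR library lay above both HCC827 libraries in 7 of the 12 (all entries 22.8%) and below them in 2 (23.4%), CSF1 and SOD2. CSF1 was at 3.50, 5.68 and 8.28 FPKM in HCC827/GR and at 15.3 and 18.8 FPKM in HCC827. Its log2 fold change of -1.46 was not called (limma adjusted p = 0.0596). IL6, an inflammatory cytokine, was at 6.25, 3.32 and 7.44 FPKM in HCC827/GR and at 0.890 and 0.879 FPKM in HCC827 (log2 fold change 1.77, SE 0.31, limma adjusted p = 0.0336). ICAM1, an adhesion molecule for leukocytes, was at 44.7, 45.0 and 56.6 FPKM against 23.5 and 28.2 FPKM (log2 fold change 0.89, adjusted p 0.0341). CYLD, a deubiquitinase that restrains NF-kappaB, was at 11.3, 13.1 and 12.9 FPKM against 6.54 and 5.95 FPKM (log2 fold change 0.89, adjusted p 0.0145). IL6 and CYLD were each called in 8 of 15 alternatives and ICAM1 in 6. None of 7 tested genes of cytokine mRNA decay was called, and their median was -0.08.

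**Figure D4:**
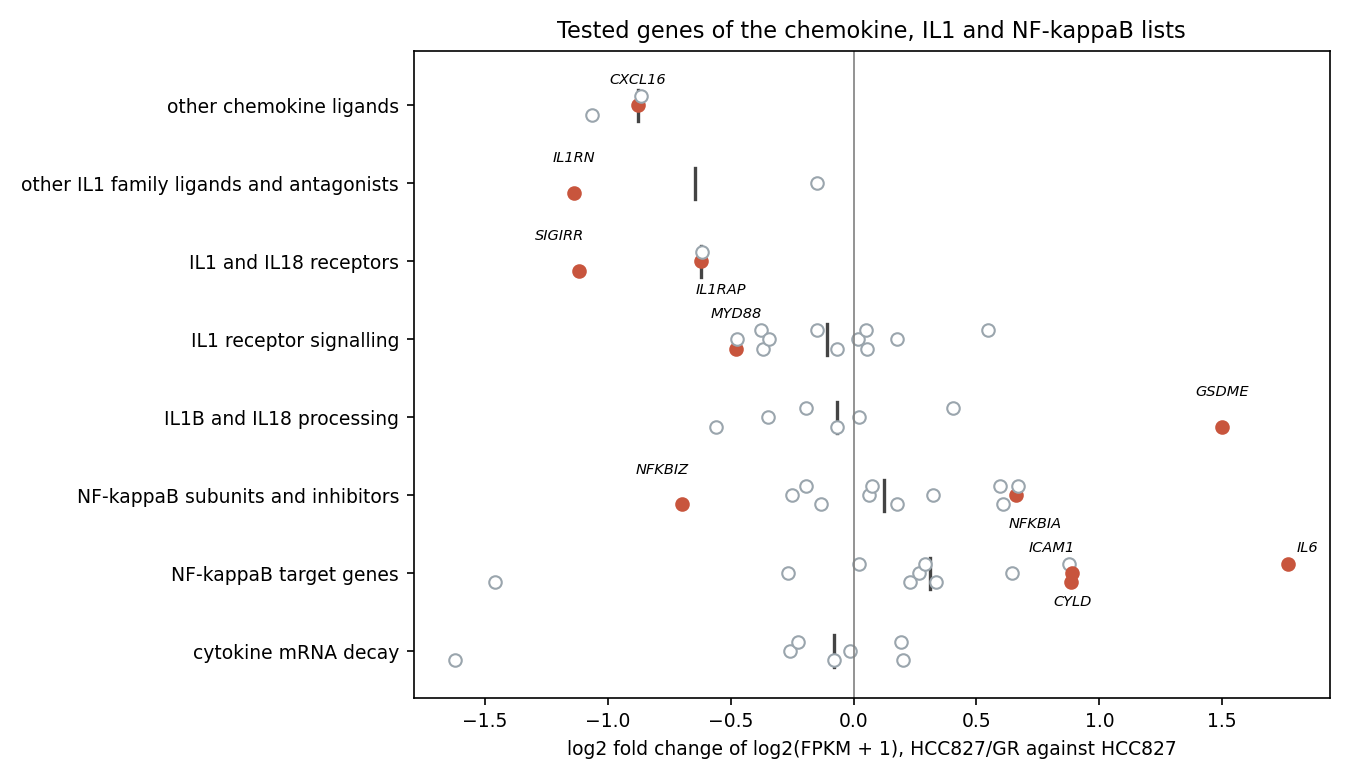
Log2 fold change of every tested gene in the chemokine, IL1 and NF-kappaB lists, 1 row for each list, with genes at a limma adjusted p under 0.05 filled and named and a short vertical line at the median of each list. IL6 at 1.77 and GSDME at 1.50 lie farthest to the right among the named genes, and IL1RN at -1.14 and SIGIRR at -1.12 farthest to the left.

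Markers of cell types were read in the same libraries. Of 8 epithelial markers, 7 were tested and 4 fell (all entries 5.71%), namely EPCAM (log2 fold change -3.04), CDH1 (-1.93), KRT19 (-1.52) and KRT18 (-0.93, limma adjusted p = 0.0413). Summed over that list, FPKM ran from 465.6 to 604.3 in HCC827/GR and from 1131 to 1237 in HCC827. Of 14 leukocyte markers, only CD68, which many cells express, was tested (log2 fold change 0.02), from an entry that joins 6 annotated genes. The summed list was at 33.5 to 38.9 FPKM in HCC827/GR and 31.9 to 40.0 in HCC827, while PTPRC, the defining leukocyte gene, was at or below 0.0228 FPKM in every library. Of 11 fibroblast and endothelial markers, 3 were tested and PECAM1 was called lower, at 3.32 to 4.34 FPKM in HCC827 and listed at 0 in HCC827/GR, from 1 of 10 entries of that symbol, one with no GENCODE gene that passed the filter only through the parental libraries. That list summed to 2.80 to 3.16 FPKM in HCC827/GR and 6.71 to 7.88 in HCC827, and to 3.39 to 3.54 in HCC827 without PECAM1. The epithelial sums did not overlap between the groups, and their part in the results for CXCL8, IL1A and IL18 was not tested. In bulk RNA, fewer cells with a transcript and less of it per cell cannot be told apart.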

How the data were processed

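RNA sequencing of 3 HCC827/GR and 2 parental HCC827 libraries was examined through a gene table of FPKM values deposited by the authors. They trimmed reads with Cutadapt, mapped them with Bowtie2 and TopHat2, and assembled and quantified genes with StringTie and Ballgown. The submitters' notes name the build hg18, while transcript identifiers of the table (135164 of 135299) matched GENCODE release 29, whose GRCh38 positions are given. The labels describe single-end small RNA libraries and the methods paired-end libraries depleted of ribosomal RNA, and which applies was not settled. A total of 1 FPKM column matched no sample used here and was left out. FPKM totals ran from 138854 to 167722, with 8896 to 9803 entries listed at 0 in a library. Whether counting used strand is not given in the sources used here, so antisense transcription could not be separated.

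The groups were compared with limma 3.58.1 in R 4.3.3 (lmFit, eBayes with trend, two-sided) on log2(FPKM + 1) of 16189 entries whose mean reached 0.5 FPKM, leaving 3 residual degrees of freedom. The alternatives tried were no filter, a filter at a mean of 1 FPKM, a smaller pseudocount (0.1), 3 scalings, limma without the trend, Ballgown's linear model refitted with a library-size covariate, a replicate block, summed entries, the ratio of means, and each library left out. Scripts were tested on simulated data. Tables and plots were made in Python 3.11.15 (scipy 1.17.1, pandas 2.3.3, numpy 2.4.6, matplotlib 3.10.9). All members are named, with every called gene of a list up to 4, a fixed set of receptor, antagonist, processing and NF-kappaB genes, and the 5 genes nearest to CXCL8. The neighbours within 3 Mb of CXCL8, and CSF1 and SOD2, were named after their values were seen. The members and lists were chosen with earlier results of these data known.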

Additional observations from a re-analysis of the deposited data

How the results depend on the processing

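The direction of the 8 tested members was kept in 127 of 127 values over the alternatives, the ratio of means included. Many of these values were fixed in advance. Changing the filter, dropping the trend and summing entries could not move a member's log2 fold change, and CXCL8 stayed at 1.54 in each. The 15 alternatives counted beside a gene leave out the ratio of means, which has no test of its own. With no filter, 0 members were called higher and 0 lower (3 and 2 list genes), the log2 fold changes of CXCL8 (1.54), IL1A (1.17) and IL18 (-1.02) had adjusted p of 0.0763, 0.0755 and 0.0755, and 504 entries were called higher against 851. More entries, 36011, then entered the adjustment. Scaling to equal totals lost IL18 (-1.06, adjusted p 0.0651, 0 members lower) and gave 531 entries higher and 2 list genes in either direction. Ballgown's model called 6 entries higher and 9 lower (2782 at an unadjusted p under 0.05), 0 members and 0 list genes, with 1.17 for CXCL8, 1.03 for IL1A and -1.21 for IL18 (adjusted p 0.286, 0.361 and 0.268), and 1 member passed as higher at the thresholds of the study. With a replicate block, 0 entries, members and list genes were called by limma (3545 entries at an unadjusted p under 0.05). The log2 fold changes of the 3 genes were then 1.73, 1.15 and -0.86 (limma adjusted p 0.124, 0.172 and 0.146). At the thresholds of the study 0 members passed as lower. HCC827 has no replicate 1, so this fit gives the log2 fold changes obtained without HCC827/GR replicate 1, and it leaves fewer residual degrees of freedom than the main fit. Across the 16189 tested entries, the difference between replicates 2 and 3 in HCC827/GR correlated at 0.03 with that in HCC827. Equal replicate numbers are not said to mark a pairing. The pseudocount of 0.1 gave 860 entries higher and 1024 lower at the thresholds of the study (480 and 643 with a pseudocount of 1) and 3 list genes lower, and the ratio of means gave 919 and 1201. Apart from what the design fixes in the block fit, the cause of these shifts was not tested.

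With each library left out, members called ranged from 0 to 1 in either direction, the one higher being IL1A or CXCL1 and the one lower CXCL5. Log2 fold changes ranged from 1.28 to 1.80 (CXCL8), 1.01 to 1.33 (IL1A), -1.15 to -0.86 (IL18), 0.79 to 1.67 (CXCL1) and -1.41 to -0.25 (CXCL5). Entries called ranged from 202 to 485 higher and 287 to 477 lower, list genes from 1 to 4 higher and 0 to 3 lower, and members lower at the thresholds of the study from 0 to 2. Depth is unknown, and values under 0.5 FPKM were not tested.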

Other observations

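HCC827/GR replicate 3, which held the high CXCL5 value of 15.1 FPKM, was compared with replicates 1 and 2 after the values had been seen, as a description with no test. It was the highest of the 3 in 5056 of 16189 tested entries (31.2%). In the list of further NF-kappaB targets it was the highest in 9 of 12 genes (75%), with a median log2 difference of 0.47 from the mean of the other two. The other lists were compared as well. Replicate 3 was the highest in 4 of 7 genes of cytokine mRNA decay (median 0.22) and 6 of 13 chromosome 4 neighbours (0.06). The same held for 5 of 12 NF-kappaB subunits and inhibitors (0.08) and 2 of 12 genes of IL1 receptor signalling (-0.10). Among the 8 tested chemokine and IL1 genes it was the highest in 4, with a median difference of 0.27, and among the 7 tested epithelial markers in 0, with a median of -0.32. Those 4 were CXCL5, whose value had been seen before the comparison, CXCL8 (5.88 FPKM), IL1A (4.27 FPKM) and CCL2 (0.822 FPKM). CXCL1, CXCL2 and IL1B were instead the lowest of the 3 in that library, at 2.77, 1.03 and 1.76 FPKM. IL18 lay in between, at 3.47 FPKM. IL6, at 7.44 FPKM there, is among the 9 target genes counted above.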
